A study of Mus musculus with 6 samples.

Results

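The amino acid transporter genes described here are the members of 7 solute carrier (SLC) families, Slc1a, Slc3a, Slc6a, Slc7a, Slc36a, Slc38a and Slc43a, taken by symbol alone from the annotations of the deposited reads, where the family name is followed by digits only. Of 14769 annotations that name a gene, 44 had such a symbol, with 6 in Slc1a, 2 in Slc3a, 11 in Slc6a, 11 in Slc7a, 4 in Slc36a, 7 in Slc38a and 3 in Slc43a. Slc6a20a and Slc6a20b, whose symbols end in a letter, were not taken as members and stand among the other carriers below, with 1 and 18 reads. RefSeq lists 61 symbols of the chosen form, and 17 of them had no annotation in the 6 libraries. The Mvt1 line was derived from a mammary carcinoma of an FVB/N mouse. Its cells were stained for surface CD24 and sorted into CD24- cells and CD24+ cells, and polyadenylated RNA of 3 plates of each group was sequenced. Both groups are subsets of 1 line and grew attached in the same medium with fetal bovine serum and antibiotics, without any further treatment. No age or genotype other than the strain is given. The plates are the replicates and no separate sorts are described, so the p-values measure the spread between plates.

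SLC proteins carry amino acids across the plasma membrane and the membranes of lysosomes. Slc3a proteins are heavy chains that hold light chains of the Slc7a family at the cell surface, where the pair exchanges 1 amino acid for another. Members of Slc1a, Slc6a and Slc38a mostly use the sodium gradient, Slc36a proteins use protons, and Slc43a proteins facilitate transport without an ion gradient. In tumor cells these carriers are known for the supply of leucine, glutamine and cystine. Some family members carry other solutes, such as taurine (Slc6a6), creatine (Slc6a8), serotonin (Slc6a4) and purine nucleobases (Slc43a3). When amino acids run short the transcription factor ATF4 raises the transcription of many of these genes together with those of serine and asparagine synthesis.

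Each library held between 9046025 and 25692147 mapped reads, with CD24+ replicate 1 the shallowest, and 71.8% to 74.4% of them were annotated to a gene. Levels are given in CPM, counts scaled to 1000000 gene reads of a library after TMM, and differences as log2 fold-changes of CD24+ over CD24- from edgeR's quasi-likelihood test, Benjamini-Hochberg adjusted over every gene tested. A gene was called at an adjusted p below 0.05, which held for 23.8% of the genes tested as higher and for 22.3% as lower in CD24+ cells. Cd24a, the gene of the sorted marker, had 77.1 ± 7.30 CPM in CD24+ libraries and 10.2 ± 2.79 CPM in CD24- libraries (SD, n = 3 each), which matches the labels. Among the markers of mammary epithelium, Krt8 and Krt18 were abundant, but Cdh1 (2 reads), Epcam (6 reads), Krt5 (1 read) and Krt14 (3 reads) were near 0 and Elf5 had no annotation. The summed level of the epithelial markers was 778 to 922 CPM in CD24+ libraries and 1860 to 2050 CPM in CD24- libraries, and 1 of the 4 that were tested was called higher and 3 lower. Of 9 leukocyte markers, Cd68 and Itgam were called lower and summed to 7.17 to 9.60 CPM against 46.7 to 80.6 CPM with the others, while Ptprc, Csf1r and Lyz2 had at most 6 reads each. Of 4 fibroblast markers tested, 4 were called higher, and the list summed to 14.9 to 20.4 CPM against 5.75 to 10.4 CPM. Endothelial markers (0.681 to 1.89 CPM in CD24+ libraries, 2.25 to 4.07 CPM in CD24- libraries) and adipocyte markers (at most 0.225 CPM) were scarce. The part of these differences in the transporter results was not tested. In RNA from bulk cells, fewer cells that express a gene and less of its RNA per cell cannot be told apart.

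Before levels were read, the 47-nt reads of each transporter gene were matched to GENCODE M21 transcripts on either strand. Reads that match transcripts of that gene and of no other are called own reads here, a count chosen after the data were seen. For most members with at least 100 reads, own reads made up between 84.5% and 99.0% of the annotated reads. All 47776 reads annotated to Slc1a1, which encodes a glutamate and cysteine transporter, lacked a match to its transcripts, and 47250 of them matched Eef1a1, the gene of an abundant translation elongation factor. All 818 reads annotated to Slc6a11, a GABA transporter gene, matched Hmgb1. The most frequent read of each is shown because its sequence decides what these values measure. Both are printed 5′ to 3′ as sequenced, with their mm9 location. They have no capitals, since every base of the read or of its reverse complement matches transcripts of the other gene. Neither read matches transcripts of the gene that annotates it.
Slc1a1 annotation, chr19:28937538-28937584, plus strand, 3604 reads, also in transcripts of Eef1a1: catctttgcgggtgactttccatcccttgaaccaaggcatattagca
Slc6a11 annotation, chr6:114119023-114119069, minus strand, 149 reads, also in transcripts of Hmgb1: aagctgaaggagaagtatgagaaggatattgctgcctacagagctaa

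Matched on either strand, the first sequence occurs in transcripts of 3 annotated genes and the second in those of 29. Slc3a1, the second heavy chain gene, kept 17 own reads of 665, while 218 matched its neighbour Prepl and 430 matched no transcript. For Slc7a11, 1907 of 3800 reads also matched transcripts of other genes, nearly all of them Tuba1a, an α-tubulin gene. For Slc6a9, 3630 of 8062 also matched other genes, chiefly the overlapping gene Ccdc24, and the library kit does not mark the strand of the RNA. Slc38a9 (65.3%), Slc1a7 (69.3%) and Slc7a7 (75.9%) lost reads mainly to sequence outside transcripts.

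**Figure D1:**
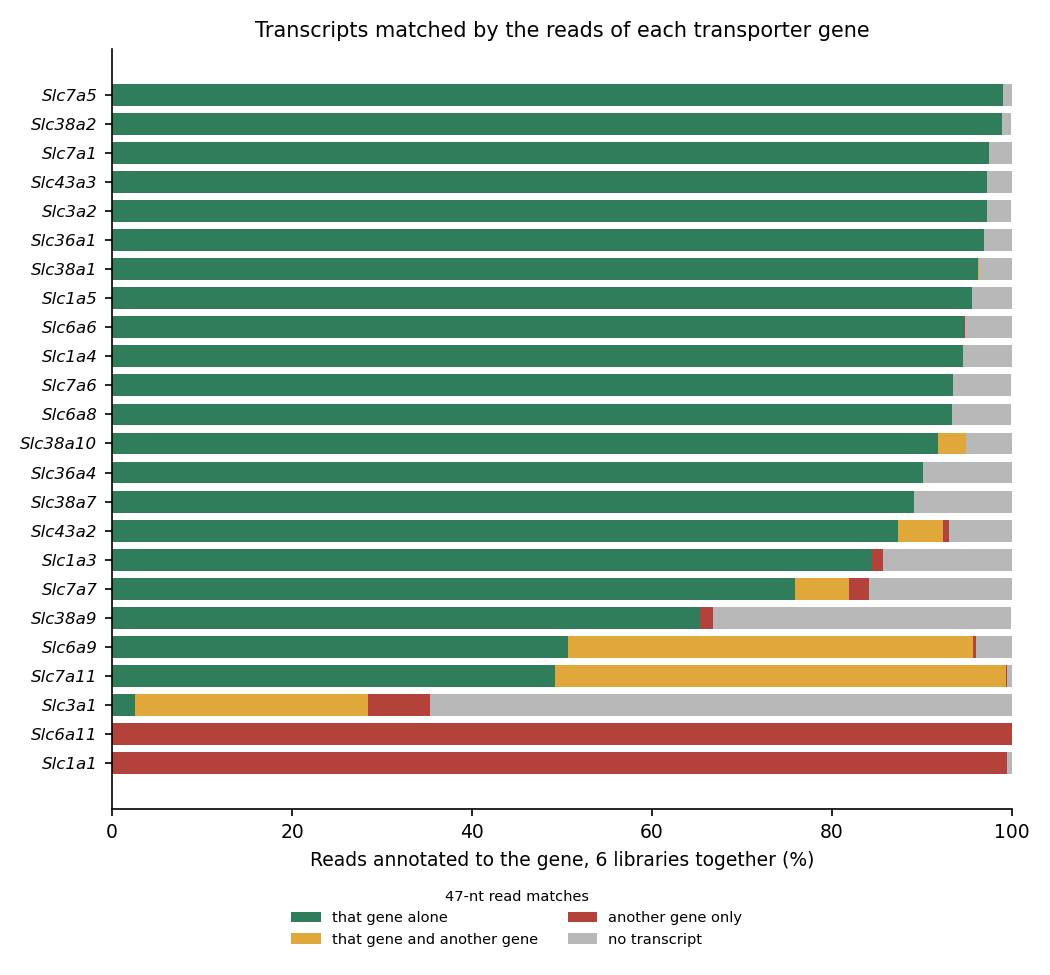
Share of the reads annotated to each transporter gene (x axis, percent, 6 libraries together, genes with at least 100 reads) whose 47-nt sequence matches GENCODE M21 transcripts of that gene alone, of that gene and another, of another gene only, or of none. Slc1a1 and Slc6a11 at the bottom have 0 own reads, and Slc7a11 and Slc6a9 have 49.2% and 50.7%.

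Among 44 transporter genes, 28 passed edgeR's filter on low counts and 16 did not, 10 of these with at most 10 reads. Of the 28, 12 were called higher in CD24+ cells, 10 lower and 6 not called, beside 23.8% higher and 22.3% lower among all 11125 genes tested (46.1% in either direction). The members' shares were 42.9% and 35.7%, and their median log2 fold-change was 0.28 beside 0.016 over all genes. The groups did not overlap for 24 of the 28, beside 57.3% of all genes. With own reads only, 24 genes could be tested, of which 11 were called higher, 7 lower and 6 not called, beside the same background of 23.8% and 22.3%. That background kept the deposited annotation for genes outside the families. Since members pass the filter partly through the group in which they are high, these counts describe the genes that had enough reads.

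**Figure D2:**
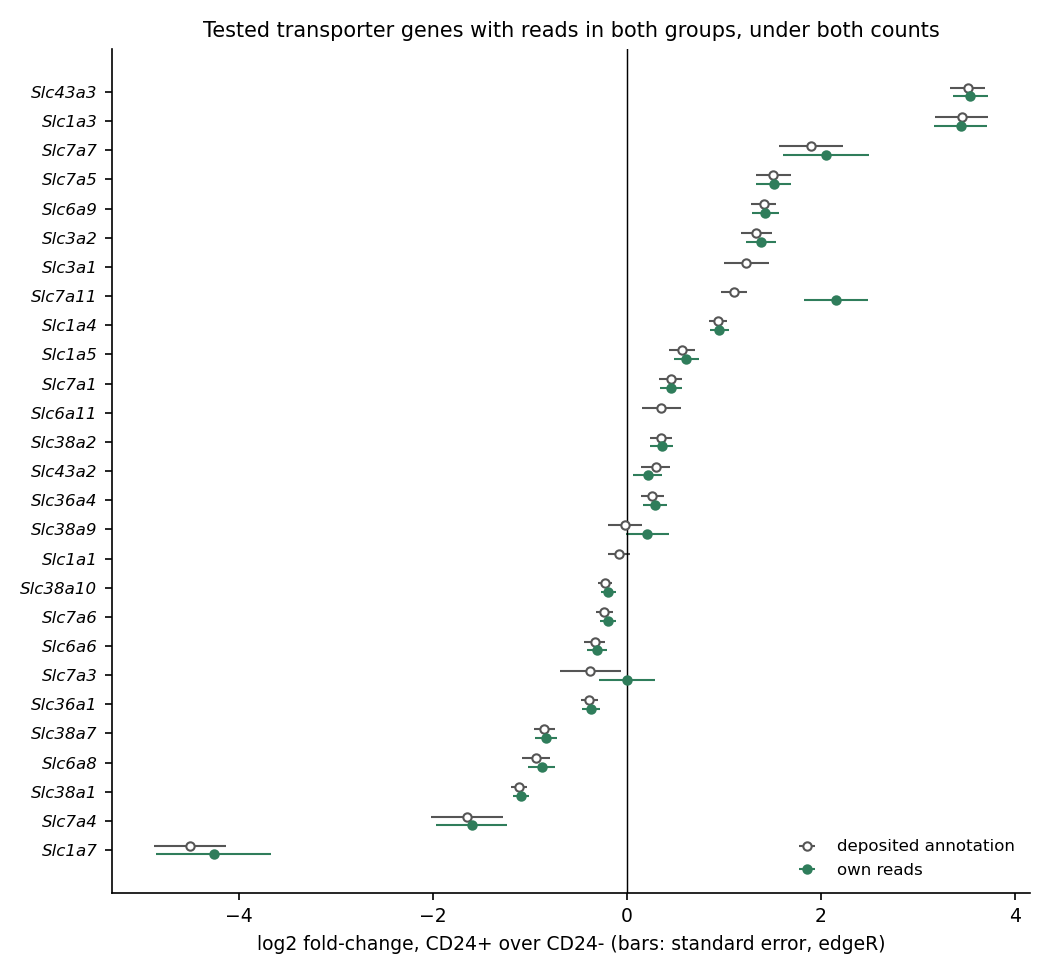
Fold-changes of the 27 tested transporter genes with reads in both groups (x axis, log2, CD24+ over CD24-, bars are standard errors) from the deposited annotation (open circles) and from own reads (filled circles, where tested). The counts lie close together for most genes, while Slc7a11 moves from 1.10 to 2.16, and Slc1a1, Slc6a11 and Slc3a1 have no filled circle. Slc6a4, with no read in CD24+ libraries, is not plotted.

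Slc3a2 and Slc7a5, which encode the chains of a single exchanger, were both higher in CD24+ cells, with means 2.52-fold and 2.84-fold those of CD24- cells. Slc3a2 encodes 4F2hc (CD98), the heavy chain, and Slc7a5 encodes LAT1, its light chain and the main exchanger of leucine and other large neutral amino acids. Slc7a5 (chromosome 8, 121881150 to 121907694 of GRCm38, minus strand) had 303, 308 and 418 CPM in CD24- replicates 1 to 3 and 1128, 714 and 1083 CPM in CD24+ replicates 1 to 3. The groups were well apart, with CD24+ replicate 2 the lowest of its group and CD24- replicate 3 the highest of its own. Its log2 fold-change was 1.51 ± 0.18 (standard error, edgeR adjusted p = 7.61e-05). Slc3a2 (chromosome 19, 8706882 to 8723369, minus strand) had 169, 164 and 222 CPM in CD24- libraries and 523, 364 and 513 CPM in CD24+ libraries. Slc3a2 was thus higher in all CD24+ libraries, with a log2 fold-change of 1.34 ± 0.157 (edgeR adjusted p = 6.90e-05). Leaving out any library kept Slc7a5 between 1.38 and 1.68 and Slc3a2 between 1.24 and 1.49. When each distinct sequence was counted once per library, which caps abundant transcripts at the number of their positions, the log2 fold-changes were 0.65 for Slc7a5 (edgeR adjusted p = 0.037) and 0.55 for Slc3a2 (edgeR adjusted p = 0.0405).

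Per transcript length, Slc7a5 stood first among all members in CD24+ cells and second in CD24- cells. On the scale of own-read CPM per kilobase of transcript (RPKM), its level was 275 ± 64.3 in CD24+ and 96.3 ± 17.8 in CD24- cells (SD, n = 3). Slc38a2 was second in CD24+ cells at 182 ± 8.36 RPKM, below Slc7a5 by more than the SD of either. Slc3a2 followed at 163 ± 31.7 RPKM, which is within its spread of Slc38a2. In CD24- cells the order was Slc38a2 (143 ± 25.2 RPKM), Slc7a5, Slc6a6 (88.6 ± 5.51 RPKM) and Slc3a2 (62.3 ± 10.2 RPKM), and Slc7a5 and Slc6a6 lay within their spread of each other.

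Slc7a11 encodes xCT, the light chain that imports cystine in exchange for glutamate and so feeds glutathione synthesis. Under its deposited annotation it had 25.7, 30.2 and 38.3 CPM in CD24- replicates 1 to 3 and 68.7, 64.4 and 69.1 CPM in CD24+ replicates 1 to 3, without overlap. That gave a log2 fold-change of 1.10 ± 0.132 (edgeR adjusted p = 7.67e-05). The part shared with α-tubulin transcripts was 22.7 ± 2.75 CPM in CD24- and 29.8 ± 2.93 CPM in CD24+ libraries (SD, n = 3), so it made up most of the CD24- value. Own reads were 5.47, 4.65 and 15.4 CPM in CD24- libraries and 35.6, 35.4 and 40.7 CPM in CD24+ libraries, with CD24- replicate 3 well above the other two. On own reads the log2 fold-change of Slc7a11 was 2.16 ± 0.332 (edgeR adjusted p = 4.46e-04). Without CD24- replicate 3 it was 2.89 ± 0.147 (edgeR adjusted p = 2.08e-07), and without any other library it was between 1.84 and 2.19. With distinct sequences under its annotation counted once, the log2 fold-change of Slc7a11 was 1.83 (edgeR adjusted p = 3.11e-04). Its own reads within the coding sequence alone, 349 in all, were 1.47 ± 1.27 CPM in CD24- and 7.08 ± 0.459 CPM in CD24+ libraries (SD, n = 3). The log2 ratio between those group means was 2.27. Like all own reads, these leave out the reads shared with α-tubulin transcripts.

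The other light chains of these heavy chains moved less or were scarce. Slc7a6 (y+LAT2, an exchanger of arginine for glutamine) had 86.4, 84.3 and 93.1 CPM in CD24- libraries and 77.7, 77.9 and 69.3 CPM in CD24+ libraries. Although these values do not overlap, the fold-change was small, at -0.23 ± 0.0852 (edgeR adjusted p = 0.0461). It was not called on own reads (edgeR adjusted p = 0.0914), nor without CD24- replicate 1 (0.104), 2 (0.0746) or 3 (0.0989) or CD24+ replicate 3 (0.159). Nor was Slc7a6 called without a filter on low counts (edgeR adjusted p = 0.0538), with distinct sequences counted once (0.177) or with quantile normalization in limma (0.0768). Slc7a7 (y+LAT1) was low, at 0.677 ± 0.251 CPM in CD24- and 2.55 ± 0.375 CPM in CD24+ libraries, and was called higher with a log2 fold-change of 1.90 ± 0.329 (edgeR adjusted p = 9.64e-04). Slc7a8 (LAT2) had 2 reads, Slc7a13 had 16 and Slc7a15 had 85, 9 of them own, too few to test. Slc7a9 and Slc7a10 had no annotation. Slc3a1 (rBAT) had 5.58, 5.21 and 4.85 CPM in CD24- libraries and 14.8, 8.41 and 14.2 CPM in CD24+ libraries under its annotation. Slc3a1 was called higher at a log2 fold-change of 1.23 ± 0.232 (edgeR adjusted p = 0.00164), but its 17 own reads gave 0.354 ± 0.143 CPM in CD24- and 0.126 ± 0.111 CPM in CD24+ libraries and could not be tested. Reads matching no transcript were at 3.43 ± 0.234 and 8.11 ± 2.59 CPM, and those shared with another gene at 1.195 ± 0.266 and 3.19 ± 0.490 CPM.

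Among the cationic amino acid transporters of Slc7a, which work without a heavy chain, Slc7a1 (CAT1, an arginine and lysine importer) was the main member. Its mean was 284 ± 53.1 CPM in CD24- and 388 ± 9.44 CPM in CD24+ libraries (SD, n = 3), without overlap and with a log2 fold-change of 0.45 ± 0.119 (edgeR adjusted p = 0.0103). The call was lost without CD24- replicate 1 (edgeR adjusted p = 0.0528) and with distinct sequences counted once (log2 fold-change 0.30, edgeR adjusted p = 0.0777). Slc7a3 (CAT3, 96 reads) was not called at -0.38 ± 0.312 (edgeR adjusted p = 0.346). Slc7a4 (91 reads) was called lower at -1.65 ± 0.374 (edgeR adjusted p = 0.00471). Slc7a2 had 3 reads. Summed over its 11 members the Slc7a family gave 1511 ± 225 CPM in CD24+ and 752 ± 126 CPM in CD24- libraries, a log2 ratio of 1.01 without overlap, and the Slc3a family gave 479 ± 92.5 and 190 ± 32.3 CPM, a log2 ratio of 1.33. With distinct sequences counted once the ratios were 0.45 for Slc7a and 0.60 for Slc3a. No test was made on such sums, to which members contribute by their abundance.

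**Figure D3:**
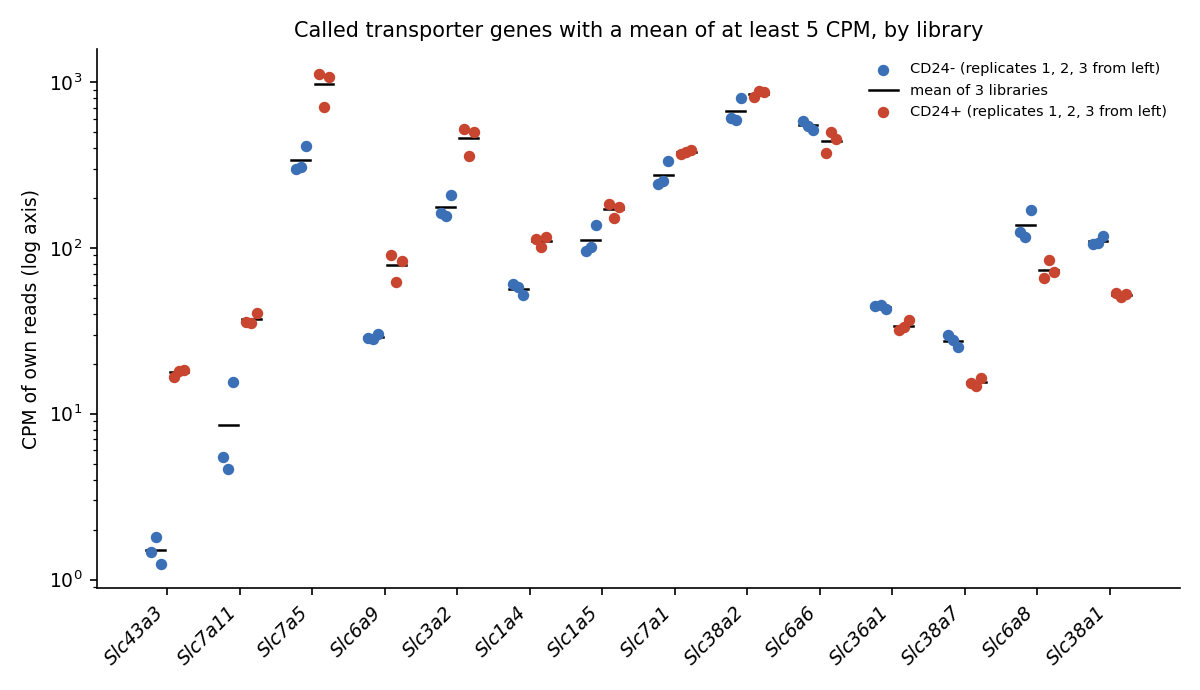
Levels of the 14 transporter genes called on own reads with a mean of at least 5 CPM (y axis, CPM of own reads, log scale), with a point for each library and a black bar for the mean of 3 libraries. Genes are ordered by log2 fold-change from Slc43a3 to Slc38a1, and the points of both groups are apart for each of them.

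In the Slc1a family, the sodium-dependent transporters of glutamate and of neutral amino acids, 3 of 5 tested members were called higher and 1 lower, beside 23.8% and 22.3% of all genes. On own reads, which Slc1a1 lacks, these were 3 and 1 of 4. Slc1a4 (ASCT1, for alanine, serine and cysteine) had 60.5 ± 4.29 CPM in CD24- and 116 ± 8.31 CPM in CD24+ libraries, a log2 fold-change of 0.94 ± 0.0903 (edgeR adjusted p = 1.65e-05). Slc1a5 (ASCT2, the main glutamine exchanger of this family) had 119 ± 24.1 and 176 ± 17.3 CPM, a log2 fold-change of 0.56 ± 0.134 (edgeR adjusted p = 0.00621). With distinct sequences counted once, Slc1a5 was not called (0.35, edgeR adjusted p = 0.0606). Slc1a3 (GLAST, a glutamate and aspartate transporter) was below 1 CPM in all CD24- libraries and between 7.001 and 9.281 CPM in CD24+ libraries, a log2 fold-change of 3.45 ± 0.273 (edgeR adjusted p = 4.18e-06). Slc1a7 (88 reads) went the other way, from 2.87 ± 0.174 CPM in CD24- to 0.125 ± 0.0283 CPM in CD24+ libraries (edgeR adjusted p = 5.81e-06). Its 61 own reads were less even, at 2.63, 2.18 and 1.015 CPM in CD24- replicates 1 to 3. On these Slc1a7 was still called lower (edgeR adjusted p = 2.18e-04). Slc1a2 had 2 reads. Slc1a1 was nominally the most abundant member, at 686, 783 and 604 CPM in CD24- replicates 1 to 3 and 701, 582 and 674 CPM in CD24+ replicates 1 to 3, and was not called (log2 fold-change -0.08 ± 0.111, edgeR adjusted p = 0.558). Nearly all of those reads match Eef1a1 transcripts, as described above. They dominate the family sum, 953 ± 87.9 CPM in CD24+ and 874 ± 73.8 CPM in CD24- libraries with overlap. Without them, on own reads, the Slc1a family summed to 288 ± 25.3 CPM in CD24+ and 171 ± 16.5 CPM in CD24- libraries without overlap, and its log2 ratio moved from 0.12 to 0.75.

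The Slc38a family holds the sodium-coupled transporters of glutamine and other neutral amino acids, and its members moved in both directions. Slc38a1 and Slc38a2 (SNAT1 and SNAT2) are neighbours on chromosome 15 of GRCm38, from 96571418 to 96642913 and from 96687392 to 96699730, both on the minus strand. Slc38a1 had 110, 112 and 123 CPM in CD24- replicates 1 to 3 and 53.8, 52.2 and 53.8 CPM in CD24+ replicates 1 to 3. The CD24+ libraries were nearly equal and all lower, with a log2 fold-change of -1.11 ± 0.0809 (edgeR adjusted p = 2.36e-06). On reads of Slc38a1 transcripts alone, under any annotation or none, it was -0.89 ± 0.0797 (edgeR adjusted p = 9.86e-06). Slc38a2 had 613, 596 and 808 CPM in CD24- libraries and 811, 888 and 873 CPM in CD24+ libraries. Its groups only just failed to overlap, since CD24- replicate 3 lay close to CD24+ replicate 1, and it was called higher at 0.35 ± 0.117 (edgeR adjusted p = 0.0313). The call on Slc38a2 was lost without CD24- replicate 1 (edgeR adjusted p = 0.132), CD24- replicate 2 (0.131), CD24+ replicate 2 (0.0814) or CD24+ replicate 3 (0.102), and with distinct sequences counted once its log2 fold-change was 0.12 (edgeR adjusted p = 0.522).

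Slc38a7 (SNAT7, which exports glutamine from lysosomes) was called lower, from 31.0 ± 2.24 CPM in CD24- to 17.1 ± 1.36 CPM in CD24+ libraries, at -0.85 ± 0.112 (edgeR adjusted p = 1.57e-04). Slc38a10 had 211 ± 9.05 and 180 ± 2.80 CPM, a log2 fold-change of -0.23 ± 0.0731 (edgeR adjusted p = 0.0269). On own reads Slc38a10 was not called (edgeR adjusted p = 0.0578) unless CD24- replicate 3 (0.031) or CD24+ replicate 1 (0.045) was left out. On annotated reads it was not called without CD24- replicate 1 (0.114), CD24- replicate 2 (0.107) or CD24+ replicate 3 (0.0722), nor with distinct sequences counted once (0.134). Slc38a9, the lysosomal arginine sensor of mTORC1, was not called at 4.81 ± 0.128 CPM in CD24- and 4.76 ± 0.225 CPM in CD24+ libraries (log2 fold-change -0.02 ± 0.178, edgeR adjusted p = 0.940). Its sign changed with the reads counted, to 0.21 on own reads. Slc38a3 and Slc38a4 had 1 and 19 reads. The family sum overlapped between groups, at 1113 ± 37.9 CPM in CD24+ and 1034 ± 113 CPM in CD24- libraries, as Slc38a2 outweighs the members that were lower. The log2 ratio of the sums was 0.11 and changed sign, to -0.0998, with distinct sequences counted once.

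Of the proton-coupled Slc36a family, Slc36a1 (PAT1, which exports small amino acids from lysosomes) had 46.3, 46.3 and 44.9 CPM in CD24- replicates 1 to 3 and 33.0, 34.3 and 37.4 CPM in CD24+ replicates 1 to 3. It was called lower at -0.39 ± 0.0897 (edgeR adjusted p = 0.00536), without overlap. With distinct sequences counted once, the log2 fold-change of Slc36a1 was -0.25 (edgeR adjusted p = 0.122). Slc36a4 was not called at 0.26 ± 0.12 (edgeR adjusted p = 0.101), although its values did not overlap. With distinct sequences counted once Slc36a4 was called higher (log2 fold-change 0.39, edgeR adjusted p = 0.0403). Slc36a2 and Slc36a3, the neighbours of Slc36a1 on chromosome 11, had 45 and 4 reads, and 44 of the 45 also matched Slc36a1 transcripts. The family sum was 52.0 ± 1.85 CPM in CD24+ and 60.6 ± 0.862 CPM in CD24- libraries. It leaves out 2205 reads of Slc36a4 transcripts without annotation, more than the 1116 annotated. On transcript reads under any annotation, Slc36a4 had 51.2 ± 0.68 CPM in CD24+ and 44.3 ± 3.14 CPM in CD24- libraries. Slc36a4 was then the more abundant, with a mean of 47.75 CPM beside 42.33 CPM for Slc36a1. The smaller family ratio on that count is given with the dependence on processing.

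**Figure D4:**
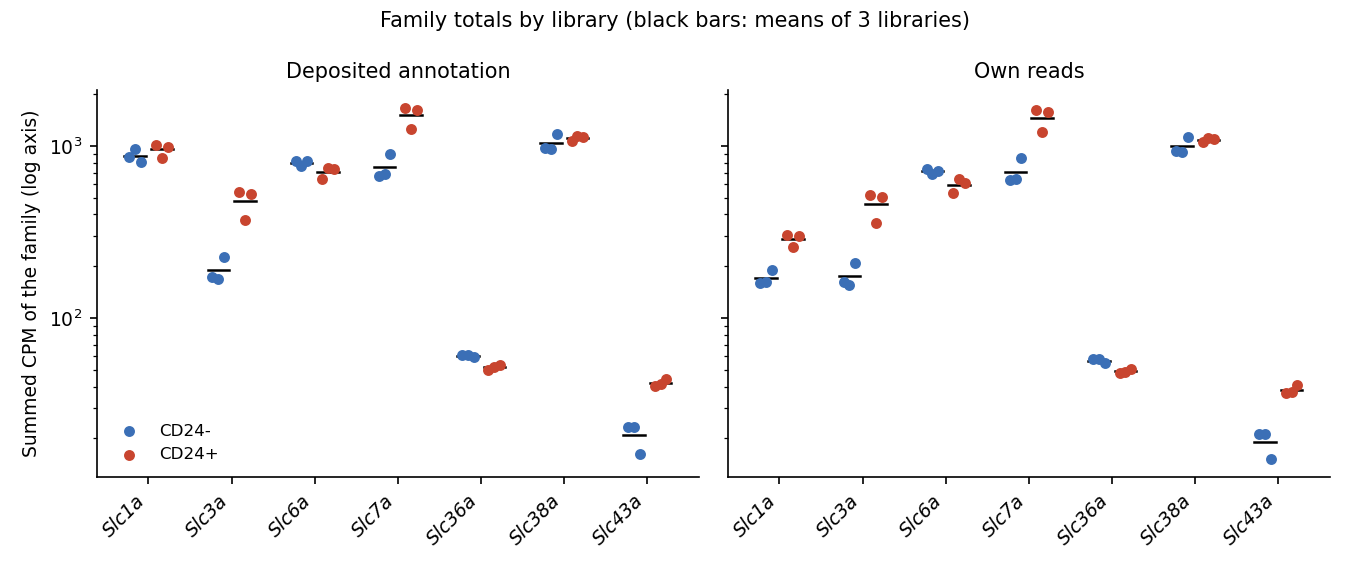
Summed level of each family by library (y axis, CPM, log scale), with the deposited annotation on the left and own reads on the right, and black bars for the means of 3 libraries. The Slc3a, Slc7a and Slc43a sums are higher in all CD24+ libraries in both panels, the Slc38a sums overlap in both, and the Slc1a sums are apart only on own reads.

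The Slc6a family carries neurotransmitters, amino acids and osmolytes with sodium and chloride, and 1 of its 5 tested members was called higher and 3 lower, beside 23.8% and 22.3% of all genes. On own reads, 3 members were tested, of which 1 was called higher and 2 lower. Slc6a9 (GlyT1, the glycine transporter) had 57.3, 55.0 and 59.8 CPM in CD24- replicates 1 to 3 and 172, 121 and 166 CPM in CD24+ replicates 1 to 3. The CD24- libraries were close together and all CD24+ libraries were higher, with a log2 fold-change of 1.41 ± 0.129 (edgeR adjusted p = 1.15e-05). Own reads of Slc6a9, which leave out the overlap with Ccdc24, gave 28.9 ± 1.06 CPM in CD24- and 78.4 ± 14.8 CPM in CD24+ libraries and a log2 fold-change of 1.43 ± 0.137 (edgeR adjusted p = 1.61e-05). Slc6a6 (TauT, the taurine transporter) was the most abundant, with 619, 571 and 558 CPM in CD24- libraries and 390, 522 and 476 CPM in CD24+ libraries. It was called lower at -0.33 ± 0.108 (edgeR adjusted p = 0.0296). The call on Slc6a6 was lost without CD24- replicate 1 (edgeR adjusted p = 0.113), CD24- replicate 2 (0.0618) or CD24+ replicate 3 (0.0551). Slc6a8, the creatine transporter, had 149 ± 31.9 CPM in CD24- and 77.2 ± 9.14 CPM in CD24+ libraries, a log2 fold-change of -0.94 ± 0.145 (edgeR adjusted p = 4.53e-04).

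The remaining Slc6a members were scarce. Slc6a4, the serotonin transporter, had 41 reads, all in CD24- libraries, at 1.05, 1.04 and 2.25 CPM. It was called lower (edgeR adjusted p = 5.42e-04), no fold is given against libraries at 0, and on its 26 own reads it was not tested. Slc6a11, whose reads all match Hmgb1 transcripts, was not called at 0.35 ± 0.202 (edgeR adjusted p = 0.176), but was without CD24- replicate 3 (0.56, edgeR adjusted p = 0.033). The other 6 had at most 62 reads. The family sum, of which Slc6a6 was the largest part, was 707 ± 55.8 CPM in CD24+ and 800 ± 33.8 CPM in CD24- libraries, a log2 ratio of -0.18 without overlap.

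Of the Slc43a family, Slc43a3 had a log2 fold-change within its standard error of that of Slc1a3, the other member above 3. Slc43a3 (chromosome 2, 84936579 to 84958509, plus strand) carries purine nucleobases rather than amino acids. It had 1.47, 1.90 and 1.35 CPM in CD24- replicates 1 to 3 and 17.0, 18.5 and 19.0 CPM in CD24+ replicates 1 to 3, narrow ranges far apart. The log2 fold-change was 3.52 ± 0.181 (edgeR adjusted p = 2.47e-07). Slc43a2 (LAT4, a facilitator for leucine and other neutral amino acids) had 22.0, 21.5 and 14.9 CPM in CD24- libraries and 23.1, 23.0 and 25.5 CPM in CD24+ libraries. It was not called (log2 fold-change 0.30 ± 0.149, edgeR adjusted p = 0.131), and CD24- replicate 3 lay apart from the other CD24- libraries. Slc43a1 (LAT3) had 1 read. The family sum was 42.1 ± 2.24 CPM in CD24+ and 21.03 ± 4.16 CPM in CD24- libraries, a log2 ratio of 1.00 without overlap. Most of that difference lay in Slc43a3, whose mean was 1.57 CPM in CD24- and 18.2 CPM in CD24+ libraries. The mean of Slc43a2, the more abundant member, was 19.5 CPM in CD24- and 23.9 CPM in CD24+ libraries.

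Own reads in the coding sequence and in the 3′ UTR gave separate estimates for 17 members. The log2 ratio of the group means had the same sign in both parts for 16 of them, with a median absolute difference of 0.092 and a largest of 0.349. For Slc7a5 it was 1.56 in the coding sequence and 1.49 in the 3′ UTR. Slc38a1 had -1.29 and -0.94. The exception was Slc7a6, with -0.35 in the coding sequence and 0.0010 in the 3′ UTR. These are ratios of means without a test.

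Among members called higher, CD24+ replicate 2 and CD24- replicate 3 often lay nearest to the other group. Of 9 called higher on own reads with at least 5 CPM, CD24+ replicate 2 was the lowest CD24+ library for 6, and CD24- replicate 3 was the highest CD24- library for 7. Of the 5 called lower, CD24+ replicate 2 was the highest CD24+ library for 2, as was CD24+ replicate 3, and CD24- replicate 3 was the lowest CD24- library for 3. Among the amino acid response genes described next, CD24+ replicate 2 was the lowest of its group for 22 of the 22 called higher, and CD24- replicate 3 the highest of its group for 16. The part of this order in the transporter results was not tested. Without CD24+ replicate 2 the log2 fold-change was 1.68 for Slc7a5, 1.48 for Slc3a2 and 1.55 for Slc6a9, and without CD24- replicate 3 it was 1.67, 1.49 and 1.44.

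Genes outside the families that belong to amino acid supply were taken from lists written from general knowledge, with earlier results of these data known. Of 29 genes of the ATF4-driven amino acid response and of serine synthesis, 26 were tested, of which 22 were called higher in CD24+ cells and 2 lower, with a median log2 fold-change of 1.33 (background 23.8% and 22.3%). Aldh1l2 (a mitochondrial folate enzyme) and Chac1 (which degrades glutathione) had the largest increases, 4.57 ± 0.297 (edgeR adjusted p = 1.10e-06) and 3.75 ± 0.322 (edgeR adjusted p = 7.57e-06). The decreases were Atf3, a stress-induced transcription factor, at -2.37 ± 0.199 (edgeR adjusted p = 6.27e-06), and Myd116, the regulatory subunit that reverses eIF2α phosphorylation, at -1.09 ± 0.113 (edgeR adjusted p = 2.81e-05). Atf4 itself, named because its motif was searched, had 186, 201 and 268 CPM in CD24- replicates 1 to 3 and 808, 556 and 676 CPM in CD24+ replicates 1 to 3. All CD24+ libraries were higher for Atf4, with a log2 fold-change of 1.64 ± 0.162 (edgeR adjusted p = 2.03e-05).

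The other lists held calls in both directions. Of 35 tested genes of amino acid sensing by mTORC1 and GCN2, 10 were called higher and 9 lower (median -0.10), near the shares of all genes, 23.8% and 22.3%. Sesn1 (a sestrin that restrains mTORC1) had 1.12 ± 0.16 and Tbc1d7 (a TSC complex subunit) 0.93 ± 0.175, while Depdc6 (DEPTOR, which inhibits mTOR) had -1.10 ± 0.12 and Gats, now Castor2, -1.09 ± 0.119. Of 43 tested genes of amino acid metabolism, 17 were called higher and 13 lower (median -0.03), beside 23.8% and 22.3% of all genes. Ckb (creatine kinase B) had 2.94 ± 0.386 and Pycr1 (proline synthesis) 2.83 ± 0.307, while Prodh (proline breakdown) had -1.40 ± 0.174 and Gatm (creatine synthesis) -1.38 ± 0.0974. Asns, Cth, Cbs and Shmt2 stand in both this list and the response list. Of 18 tested carriers of amino acids or peptides outside the 7 families, 1 was called higher and 6 lower (median -0.13), beside 23.8% and 22.3% of all genes. The increase was that of Slc25a29 (a mitochondrial carrier of basic amino acids) at 1.56 ± 0.174. Among the decreases, Slc16a10 (TAT1, for aromatic amino acids) had -2.62 ± 0.238 and Slc15a2 (PEPT2, for peptides) -1.73 ± 0.222.

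**Figure D5:**
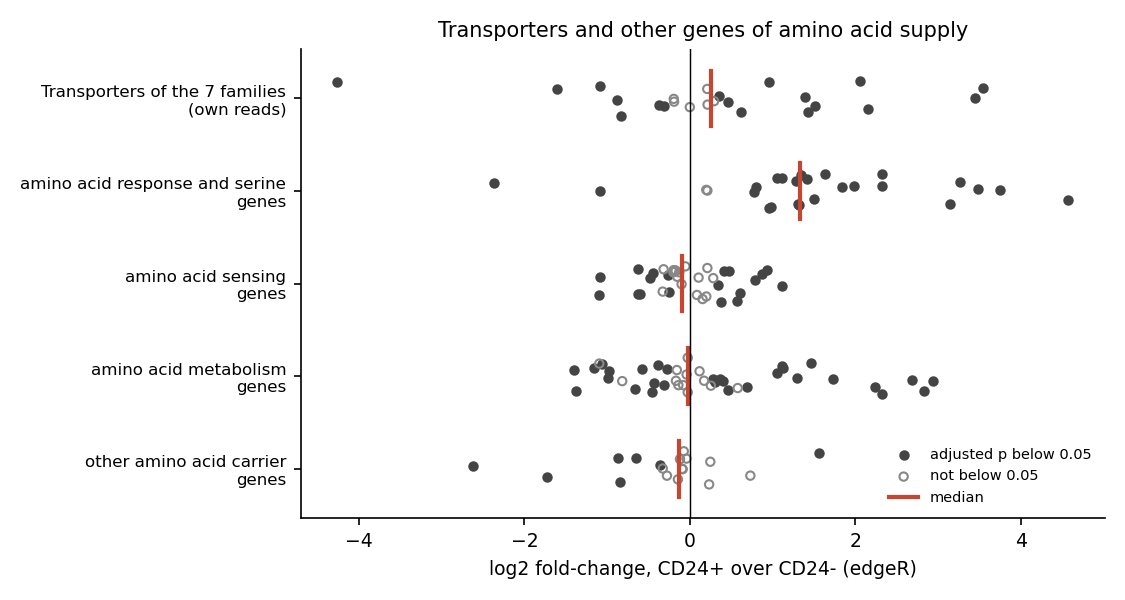
Log2 fold-change (x axis, CD24+ over CD24-) of each tested gene in the 7 transporter families, on own reads, and in the 4 other lists (y axis, points shifted at random within a row). Filled points have an edgeR adjusted p below 0.05 and red bars are medians, at 1.33 for the response genes and between -0.13 and 0.25 for the other rows.

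Promoters of the transporter genes were searched for TGATGNAA, the C/EBP-ATF response element that ATF4 binds, on both strands (reverse complement TTNCATCA). The RefSeq promoter table (GRCm38.p6, 250 bases before to 50 after each start) held 31 of the 44 members, without Slc7a5. The motif was present for 4.51% of the 27025 genes and in 3.97% of the 32851 promoters listed there. It occurred in 3 of the 31 members, Slc7a11, Slc1a4 and Slc7a7, and in 4 of the 48 promoters listed for members (8.33%). On own reads these are 3 of the 8 members in the table that were called higher, beside 0 of 3 called lower and 0 of 5 tested and not called. The rest of the 11 called higher and 7 called lower could not be searched. At a share of 4.51%, groups of 3 or 5 would mostly hold 0, so these counts cannot tell the directions apart. Among the response genes in the table, 9 of 26 (34.6%) had it. For each of the 3 genes a promoter is shown to place the motif, on the strand of the gene with the motif in capitals. It runs from 150 bases upstream to the start site or to the end of a motif that crosses it. The remaining promoter of the 4, a further listed start among these genes, holds a motif that begins more than 150 bases upstream and is not shown.
Slc7a11, chr3:50443614-50443763, minus strand: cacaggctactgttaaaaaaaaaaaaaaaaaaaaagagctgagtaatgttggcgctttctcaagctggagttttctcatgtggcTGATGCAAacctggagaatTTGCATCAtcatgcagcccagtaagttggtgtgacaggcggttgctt
Slc1a4, chr11:20332710-20332863, minus strand: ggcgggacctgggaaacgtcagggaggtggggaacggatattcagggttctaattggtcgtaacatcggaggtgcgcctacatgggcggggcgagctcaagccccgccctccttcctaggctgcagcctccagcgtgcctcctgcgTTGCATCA
Slc7a7, chr14:54417938-54418094, minus strand: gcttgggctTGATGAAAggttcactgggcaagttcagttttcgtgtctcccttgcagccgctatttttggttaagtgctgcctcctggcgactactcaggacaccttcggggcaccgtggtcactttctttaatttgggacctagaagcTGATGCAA

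The Slc7a11 promoter shown holds the motif on each strand, beginning 66 and 47 bases before the start. In Slc1a4 it begins 4 bases before the start and runs past it. In Slc7a7 it begins 141 bases and 1 base before the start. That start lies upstream of the GENCODE M21 gene, which begins at 54417780 on the minus strand, and the distances hold for the listed start only. A match is a description of the letters, and binding was not measured.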

How the data were processed

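Single-end mRNA reads came from 3 plates of each Mvt1 group. The authors cut reads to 47 nt, merged duplicates while keeping their number, placed each sequence where it matched the genome exactly and assigned 1 location and, by a hierarchy, 1 annotation. They deposited raw read counts per sequence and library, not normalized and not pooled. The submitters' processing notes name the build mm9, while the mapper and the source of the annotation were not given in the sources used here. Exact matching leaves out reads across exon junctions and reads over variants between FVB/N and the reference, and places reads of near-identical copies at 1 of them. The mapped strand of a read is not that of its RNA, which the library kit does not mark.

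Counts were summed per symbol. Reads with no annotation (16.9% to 20.2%), on repeats (7.56% to 10.2%) or on small or noncoding RNA were left out. Genes passing filterByExpr were tested with edgeR 4.0.16 under R 4.3.3 (TMM scaling, quasi-likelihood, p adjusted by Benjamini-Hochberg and called below 0.05). The script was tested on simulated data. Alternatives were DESeq2 1.42.0, totals without TMM, other filters, each distinct sequence counted once, quantile-normalized CPM plus 10 in limma 3.58.1 (the study added this regularizer to quantile-normalized median coverage of a transcript, another unit), a minimum log2 fold-change of 1, a replicate block, and each library left out. After the data were seen, members were also counted from reads that match GENCODE M21 transcripts of that gene alone, under its own or any annotation, the former also with each library left out. Coordinates of genes are GRCm38 (GENCODE M21), those of reads mm9. RPKM uses the longest basic protein-coding M21 transcript. With 3 libraries a group, exact permutation cannot reach a p under 0.10, so none is reported. Libraries of a group differed by more than sampling noise (chi-square over its degrees of freedom), least for CD24- replicates 1 and 2 (1.75) and by 9.87 to 16.1 for the other pairs, among them CD24- replicate 3 with replicates 1 (10.3) and 2 (12).

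Members and lists were chosen with earlier results of these data known. Values by library are given for members called with at least 5 CPM and an absolute log2 fold-change of at least 1, the most abundant member of each family, heavy chains and their light chains with at least 5 CPM, and tested neighbours. Of each list the 2 largest increases and decreases called with at least 5 CPM are named. Older symbols in the annotation were matched through RefSeq synonyms. Protein sequences were not used here.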

Additional observations from a re-analysis of the deposited data

Results flagged for a closer look

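Reads that carry no annotation, and so enter no gene count, included reads that match GENCODE M21 transcripts of transporter genes alone. They stood out because they lie outside the counts used in the comparisons. Slc38a1 had 4345 such reads, at 77.7 ± 4.53 CPM in CD24- and 48.6 ± 2.29 CPM in CD24+ cells (SD, n = 3), without overlap and in the direction of its annotated reads. Their log2 ratio was smaller in size, at -0.68 beside the fold-change of -1.11 on annotated reads. Slc7a1 had 2221, at 19.96 ± 2.15 and 39.0 ± 2.60 CPM, a log2 ratio of 0.97 beside the fold-change of 0.45 on annotated reads. Slc36a4 had 2205, more than the 1116 under its annotation, at 28.5 ± 1.69 and 32.1 ± 1.93 CPM with overlap. Slc38a6, which no annotation names, had 814, at 14.5 ± 2.43 CPM in CD24- and 8.74 ± 1.06 CPM in CD24+ cells without overlap. Slc43a2 had 270 and Slc3a2 had 251.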

How the results depend on the processing

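Of 412 alternative values of single members, 374 kept both sign and call, 29 lost the call, 2 gained it and 7 changed sign, and 17 of 28 members never changed where they had a value. Slc3a1 and Slc6a4 are among these 17, and Slc3a1, Slc6a4, Slc1a1 and Slc6a11 had none on own reads or on transcript reads under any annotation. The sign changes were those of members not called: Slc38a9 (0.12 with distinct sequences counted once, 0.21 on own reads, 0.30 on transcript reads under any annotation, 0.0021 without CD24- replicate 3, 0.013 without CD24+ replicate 3, range -0.055 to 0.013 over libraries left out), Slc6a11 (-0.34 with distinct sequences) and Slc1a1 (0.014 without CD24- replicate 2, range -0.17 to 0.014). A minimum log2 fold-change of 1 left 1600 genes called (1003 higher, 597 lower), 8 transporters higher and 4 lower, 20 response genes, 3 sensing genes, 15 metabolism genes and 3 other carriers, by its construction. Distinct sequences counted once left 3697 genes called (2147 higher, 1550 lower), 10 transporters higher and 7 lower and 11 sensing genes, beside 5130, 12, 10 and 19 with all reads counted, and gave family log2 ratios of 0.52 for Slc1a, 0.60 for Slc3a, 0.45 for Slc7a, -0.098 for Slc36a and -0.0998 for Slc38a, the last with a change of sign. Quantile normalization with the regularizer gave -0.16 for Slc36a and 0.45 for Slc43a. Slc1a was 0.75 on own reads and 0.75 on transcript reads under any annotation, the latter with -0.065 for Slc36a. Leaving out a library left 4069 to 5358 genes called, with 10 to 13 transporters higher and 7 to 10 lower. On own reads, leaving out a library ended the calls on Slc38a2 (edgeR adjusted p of 0.0776 to 0.127 for 4 libraries) and Slc6a6 (0.0652 to 0.136 for 4 libraries, among them CD24+ replicate 1), and the sign of Slc7a3, not called, changed.

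The replicate numbers were not taken to pair the samples. The deviations of same-numbered libraries correlated at 0.0143, -0.251 and -0.31. Differently numbered libraries were not compared, so a batch shared across the groups was not tested. With the replicate block 4493 of 11125 genes were called in either direction, with 12 of 28 transporters higher and 8 lower. Slc38a10 (edgeR adjusted p = 0.0814) and Slc7a6 (0.109) lost the call. Without a filter on low counts, 15 of the 44 transporters were called higher and 10 lower, beside 2867 and 2602 of the 14769 annotated genes. CD24+ replicate 1, the shallowest library, and genes with under 100 reads limit the precision. The cause of the changes under the other settings was not tested.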

Other observations

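Of the 16 members with too few reads to test, those with more than 10 reads are given by library, replicates 1 to 3 of CD24- before those of CD24+. Slc6a12, the betaine and GABA transporter, had 32 reads, at 0 in all CD24- libraries and at 0.786, 0.790 and 0.681 CPM in CD24+ replicates 1 to 3. Slc6a2, the noradrenaline transporter, had 62 reads, at 0.105, 0.0948 and 0 CPM in CD24- replicates and 0.629, 0.960 and 2.04 CPM in CD24+ replicates. Slc7a13 had 16 reads, at 0.105, 0 and 0 CPM and at 0.472, 0.169 and 0.471 CPM. Slc38a4 had 19 reads, at 0, 0.569 and 0.113 CPM and at 0.315, 0.282 and 0.262 CPM, with overlap. Slc7a15 had 85 reads, at 2.21, 2.56 and 0.676 CPM and at 0.315, 0.734 and 0.838 CPM, with overlap. Slc36a2 had 45 reads, at 0.631, 1.14 and 0.676 CPM and at 0.472, 0.339 and 0.629 CPM, and 44 of them also match Slc36a1. These values were not tested, and each rests on few reads.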
